A study of Caenorhabditis elegans with 2 samples.

Results

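The genes described here are 10 regulators of insulin signalling and stress resistance in Caenorhabditis elegans, taken by name: daf-2, age-1, daf-18, pdk-1, akt-1, akt-2, sgk-1, daf-16, skn-1 and hsf-1. All 10 were found among the 19985 protein-coding genes of the annotation. Chromatin immunoprecipitation followed by sequencing (ChIP-seq) had been used to map TBX-2, a T-box transcription factor needed for pharyngeal muscle development. Strain OP159, in the unc-119(ed3) III background with the insertion wgIs159, stably carries TBX-2 with a GFP-FLAG tag at its C terminus. Whole hermaphrodites were collected as L3 larvae 48 h after release from L1 starvation, and an anti-GFP antibody was used to pull the tagged protein down with its DNA. There were 2 biological replicates of this 1 group and no other genotype, stage or treatment, so nothing was compared between conditions and no test was run. In whole worms, binding in a few cells and weaker binding in many cannot be told apart.

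In the pathway, the insulin-like receptor DAF-2 acts through the phosphoinositide 3-kinase AGE-1, which the lipid phosphatase DAF-18 opposes. The lipid signal engages the kinase PDK-1 and the kinases AKT-1, AKT-2 and SGK-1 below it. The AKT kinases keep the FOXO factor DAF-16 out of the nucleus and the pathway restrains SKN-1, the Nrf factor of the oxidative stress response, while HSF-1 drives the heat shock response. The pathway is known for its control of dauer entry, lifespan and stress resistance.

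Entries of the authors' peak lists were placed by their summits. An entry was assigned to a gene if its summit lay from 2000 bp upstream to 200 bp downstream of any annotated transcript start (the start window), or in an intron. An intron here is sequence of the gene that no exon of any of its transcripts covers. The authors' ranked list of the pooled replicates holds 30000 entries, peaks and background together. The list cut at a limit on the irreproducible discovery rate (IDR), which compares how ranked lists order their entries, holds 1631, which are exactly the strongest of the pooled list. The signal value is the authors' peak caller's own for each entry, and its lowest thresholded value was 91.0. Values of different lists are on scales of their own and were not normalized to each other. The depth of sequencing is unknown, as no counts are given.

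Thresholded summits lay in a start window or intron of 5 of the 10 genes: daf-2, pdk-1, akt-2, daf-16 and skn-1. The same held for 8.11% of all protein-coding genes. Because the 10 genes were chosen with earlier results of these data known, such shares serve as description and not as a test. In the start windows alone there were 4 such genes (pdk-1, akt-2, daf-16 and skn-1), against 7.29% of protein-coding genes. In introns there were also 4 (daf-2, pdk-1, daf-16 and skn-1), against 1.62%. These genes are long, with a median span of 7.50 kb against 2.03 kb for all protein-coding genes and a median of 2.5 annotated starts against 1. Shares were higher among long genes. Of the 3233 genes spanning 5 kb or more, 11.3% had a thresholded summit in a start window, 6.74% in an intron and 14.4% in either. Of the 980 genes with 4 or more starts, 15.8%, 10.4% and 19.2% did. Among the 198 genes of 20 kb or more, to which daf-2 and daf-16 belong, 18.7% had one in an intron. The other 5 genes, age-1, daf-18, akt-1, sgk-1 and hsf-1, had none. Entries of any strength in the pooled list were common. They lay in the start windows of 7 of the 10 genes, against 44.6% of protein-coding genes, in introns of 7, against 23% of them, and in either for the same 7 genes, against 49.9%. Among genes of 5 kb or more these shares were 64.5%, 60.9% and 76.2%, and among genes with 4 or more starts 75.7%, 65.9% and 81.5%, values on either side of 7 in 10.

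Together the 5 genes carried 7 thresholded summits, 2 each at pdk-1 and daf-16. Of all protein-coding genes 0.846% had 2 or more, as did 2.85% of those spanning 5 kb or more, 7.58% of those spanning 20 kb or more and 4.8% of those with 4 or more starts. The DNA around the summits at pdk-1, akt-2, skn-1 and daf-2 is printed next, since these carry 5 of the 7 summits that the results turn on. Each run is 201 bases centred on the summit, on the plus strand of the assembly WBcel235 (ce11), as read from the RefSeq genome. Capitals mark matches, on either strand, to any of 12 short sequences that were searched.
pdk-1, second intron, X:1323132-1323332: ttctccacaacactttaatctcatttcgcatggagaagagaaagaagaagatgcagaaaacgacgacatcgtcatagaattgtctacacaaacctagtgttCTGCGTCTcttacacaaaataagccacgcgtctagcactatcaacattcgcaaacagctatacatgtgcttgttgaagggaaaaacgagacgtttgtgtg
pdk-1, upstream, X:1319869-1320069: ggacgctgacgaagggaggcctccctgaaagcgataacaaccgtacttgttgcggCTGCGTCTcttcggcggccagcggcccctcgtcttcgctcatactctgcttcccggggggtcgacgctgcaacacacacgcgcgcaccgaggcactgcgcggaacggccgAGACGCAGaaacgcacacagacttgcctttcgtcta
akt-2, upstream, X:14146846-14147046: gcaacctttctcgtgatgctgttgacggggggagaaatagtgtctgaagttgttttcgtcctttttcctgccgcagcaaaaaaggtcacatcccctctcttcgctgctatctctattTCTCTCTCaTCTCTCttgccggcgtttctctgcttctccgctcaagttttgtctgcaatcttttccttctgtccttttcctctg
skn-1, intron, IV:5657178-5657378: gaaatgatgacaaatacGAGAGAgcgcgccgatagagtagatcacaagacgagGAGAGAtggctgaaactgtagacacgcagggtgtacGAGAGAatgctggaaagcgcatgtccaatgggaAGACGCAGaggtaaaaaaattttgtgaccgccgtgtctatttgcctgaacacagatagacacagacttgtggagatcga
daf-2, the first intron, III:3037431-3037631: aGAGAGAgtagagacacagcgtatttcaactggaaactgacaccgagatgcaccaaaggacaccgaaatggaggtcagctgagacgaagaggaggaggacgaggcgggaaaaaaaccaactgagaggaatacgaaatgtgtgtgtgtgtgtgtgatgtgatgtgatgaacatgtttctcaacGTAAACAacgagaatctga

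The T-box half-site GGTGTG was in 0 of the 7 thresholded windows, and so were its longer forms GGTGTGA and AGGTGTGA. That half-site was in 7.48% of all 1631 thresholded windows and in 5.93% of the 28369 other pooled windows. Among the 59 unthresholded entries of the 10 genes, 5 windows held it. The letters TGTTTAC, searched as a FoxA site, and GTAAACA, searched as a DAF-16 site, are reverse complements of each other and give the same matches. They occurred once among the 7 windows, at daf-2, and in 2.27% of all thresholded windows. The GATA site TGATAA, the E-box CACGTG, the heat shock element GAANNTTC and the SKN-1 letters ATCATCA were in 0 of the 7. In that order they were in 10.2%, 7.66%, 8.22% and 3.86% of thresholded windows. Of the other pooled windows, 15.3%, 4.82%, 11.6% and 5.62% held them. Among the 59 unthresholded entries of the 10 genes, 10, 5, 8 and 5 windows did. A missing match says only that these letters are not in these 201 bases.

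A further 3 sequences were searched after the data had been seen. GAGAGA was in 4 of the 7 windows, those of akt-2, skn-1, daf-2 and the stronger summit of daf-16, where overlapping matches numbered 17. It was in 41.6% of all thresholded windows and 17.1% of the others. CTGCGTCT was in 3 of the 7, both of pdk-1 and that of skn-1, against 14.7% of thresholded and 2.84% of other windows. The upstream window of pdk-1 held it at 2 places. GCGCAGGG, the core of a site known on X for dosage compensation, was in 0 of the 7 and in 1.23% of thresholded windows. Base composition also set the upstream window of pdk-1 apart, with 63.7% G and C, more than in 99.5% of thresholded windows. The other 6 ranged from 41.3% to 49.8%, around the thresholded median of 45.8%.

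**Figure D1:**
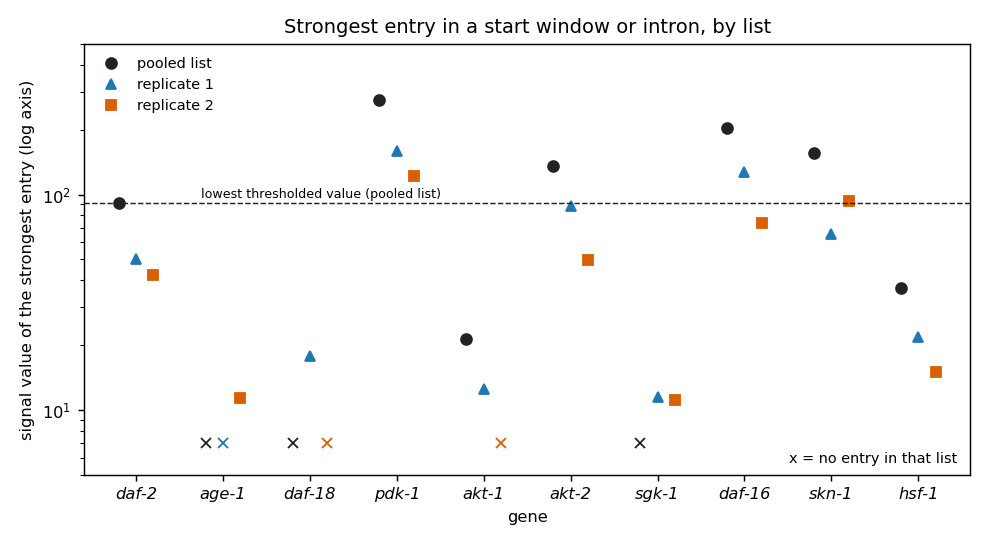
Signal value (log axis) of the strongest entry in a start window or intron of each gene, for the pooled replicates (circles), replicate 1 (triangles) and replicate 2 (squares). The dashed line is the lowest thresholded value of the pooled list, 91.0, which the pooled entries of 5 genes exceed, daf-2 by the least. Crosses mark lists with no entry for a gene, and lists are not normalized to each other.

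daf-2, the receptor gene, lies at III 2994514 to 3040846 on the minus strand and is the longest of the 10, with 7 annotated starts. The 15 intronic entries of the pooled list included 1 thresholded entry, at 3037321 to 3037740, with a signal value of 91.8. That placed it at rank 1612 of the pooled list, close to the last thresholded rank of 1631. Replicate 1 gave the site 50.2, at rank 1739, and replicate 2 gave it 42.5, at rank 1794. Each replicate thus put it just below its own top 1631. The summit lay 3315 bp downstream of the most 5′ start, that of transcript Y55D5A.5c.1, inside the first intron of that transcript, which is 11981 bp long. It lay 12 bp downstream of the annotated start of linc-143, a long non-coding RNA gene. The next entry of daf-2 had a pooled signal value of 56.3, with 37.7 in replicate 1 and 16.75 in replicate 2.

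The start windows of daf-2 held only weak entries. The most 5′ start had none in any list. The strongest, 478 bp upstream of the start of Y55D5A.5d.1, had a signal value of 27.4 at rank 13717, against a median of 26.0 over the pooled list. Replicate 2 gave this entry 15.1 at rank 13838, and replicate 1 had no overlapping entry. In all, 6 pooled entries fell in the windows of the 7 starts, with 29.0% of protein-coding genes having a better-ranked entry in theirs.

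age-1, which encodes the catalytic subunit of the phosphoinositide 3-kinase, had no pooled entry in a start window or intron. The gene lies at II 11519328 to 11527054 on the minus strand. Only the list of replicate 2 held entries there. They were 93 bp downstream of the start of B0334.8a.1, with a signal value of 11.4 at rank 22372, and in an intron with 9.455 at rank 28731. The lowest value in that list was 9.12, so both stood near its floor.

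daf-18, the gene of the phosphatase that acts against AGE-1, lies at IV 420011 to 425177 on the minus strand. No pooled entry lay in its single start window or its introns. Replicate 1 alone had an entry, 1196 bp upstream, with a signal value of 17.8 at rank 12668 of 28366.

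pdk-1, the gene of the kinase that activates the AKT kinases, held the strongest entry of all 10 genes. It lies at X 1321344 to 1327986 on the plus strand, and its pair of starts is 9 bp apart. The entry at 1323128 to 1323340 had a signal value of 276 at rank 222 of the pooled list. Replicate 1 gave it 159.9 at rank 203, and replicate 2 gave it 121.6 at rank 259. All 3 lists thus placed it far inside their top 1631. The summit lay 1879 bp downstream of the nearer start, in the second intron of H42K12.1b.1, which is 2051 bp long, and no other gene of any kind started within 1000 bp of it.

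A second thresholded entry of pdk-1 lay upstream, at 1319759 to 1320178, with its summit 1375 bp before the more 5′ start. Its pooled signal value was 102 (rank 1364), with 57.9 in replicate 1 (rank 1369) and 54.0 in replicate 2 (rank 1193). The replicates' summits lay 106 bp and 27 bp from the pooled summit. No other start of any gene was annotated within 1000 bp of this summit either. The remaining entry, in the first intron, was weak, with a pooled signal value of 35.05 against 18.2 in replicate 1 and 17.5 in replicate 2.

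akt-1 and akt-2 encode the AKT kinases and differed from each other in these lists. At akt-2, X 14147700 to 14152070 on the plus strand, the thresholded entry at 14146736 to 14147155 had its summit 754 bp upstream of the gene's only start. Its pooled signal value was 136 (rank 858), with 88.0 in replicate 1 (rank 668) and 49.9 in replicate 2 (rank 1360). Replicate 1 ranked it higher than replicate 2 did, and both had it in their top 1631. Weaker entries lay 554 bp and 1758 bp upstream, with pooled signal values of 34.0 and 41.6.

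At akt-1, V 10248905 to 10252845 on the plus strand, the 3 starts lie within 51 bp and their windows held 1 pooled entry. Its summit was 67 bp downstream of the nearest start, with a signal value of 21.3 at rank 20736. Replicate 1 gave it 12.5 and replicate 2 had no entry there. The only intronic entry, with 16.18, ranked 29503 of 30000, next to the end of the list.

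sgk-1 encodes the SGK kinase and lies at X 16254842 to 16262122 on the minus strand, with 3 starts. The pooled list had no entry in its start windows or introns. Replicate 1 had an intronic entry with a signal value of 11.5. Replicate 2 had entries 1275 bp upstream of the start of W10G6.2a.1, with 11.15, and 173 bp downstream of that of W10G6.2a.2, with 9.86. The replicates shared none of these sites. Of the 3 members on X, pdk-1 and akt-2 thus had thresholded summits and sgk-1 had none, where 10.1% of the 2731 protein-coding genes on X had one in a start window or intron.

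**Figure D2:**
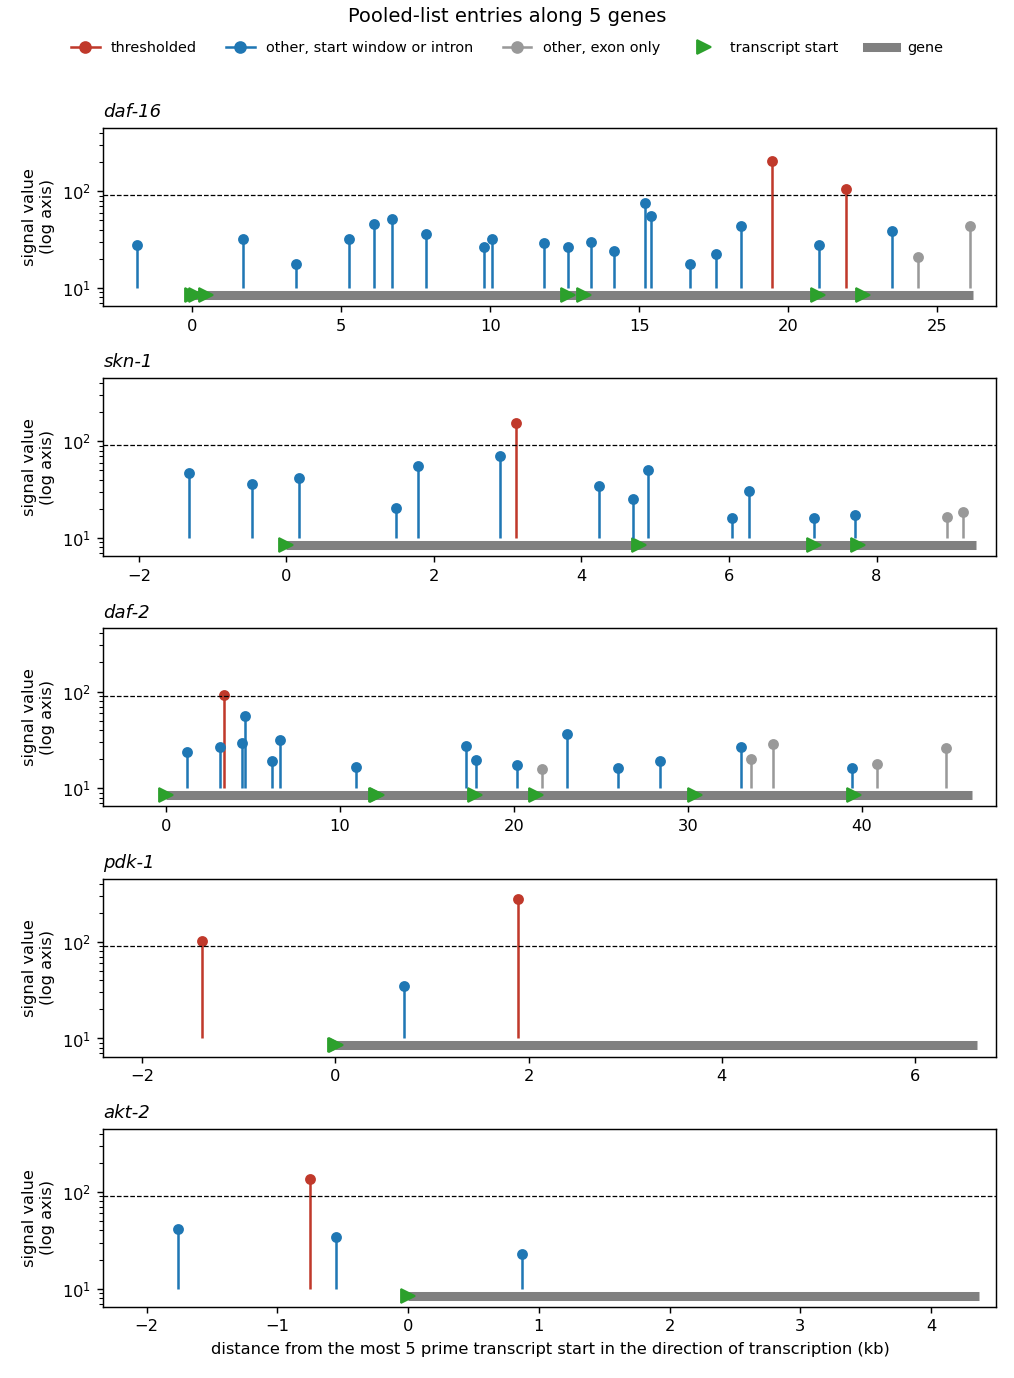
Pooled-list entries along the 5 genes with a thresholded summit, with the signal value on a log axis and the distance from the most 5′ transcript start in kb, in the direction of transcription. Red entries are thresholded, blue ones are other entries in a start window or intron and grey ones lie in exons only, and green triangles are annotated starts. The dashed line is the lowest thresholded value, 91.0, and no thresholded summit sits at an annotated start of these 5 genes.

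daf-16, the FOXO gene on which the kinases act, lies at I 10750498 to 10776703 on the plus strand and has 7 starts in 3 groups along the gene. Its thresholded summits were in the windows of the 2 most 3′ starts, and both lay in the intron of 7676 bp of R13H8.1h.1, the transcript with the most 5′ start. The stronger, at 10769882 to 10770050, had a pooled signal value of 203 (rank 425), with 127.6 in replicate 1 (rank 322) and 74.2 in replicate 2 (rank 669). Its summit lay 1569 bp upstream of the start of R13H8.1a.1 and 271 bp downstream of that of R13H8.5, a non-coding RNA gene. Replicate summits were within 4 bp of the pooled one.

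The weaker thresholded entry of daf-16, at 10772225 to 10772644, had its summit 564 bp upstream of the start of R13H8.1e.1 and downstream of that of R13H8.1a.1. Its pooled signal value was 105.7 (rank 1284), with 64.3 in replicate 1 (rank 1150) and 40.0 in replicate 2 (rank 2020), so replicate 2 alone placed it outside its top 1631. At the other starts the entries were weak. The 3 most 5′ starts, of transcripts R13H8.1h.1, R13H8.1f.1 and R13H8.1d.1 among others, had 1 pooled entry between them, with a signal value of 27.9 at rank 13220. The strongest entry of the middle pair, of R13H8.1b.1 and R13H8.1l.1 among others, had 28.8 at rank 12505.

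The introns of daf-16 held 19 pooled entries in 22.5 kb, by number the most of the 10 genes. Those of daf-2 held 15 in 38 kb and those of skn-1 held 11 in 6.39 kb. The strongest unthresholded intronic entry of daf-16, at 10765481 to 10765900, had a signal value of 76.1 at rank 2208. Its −log10 q value, 2.76, was that of the thresholded entries. The replicates disagreed at this site. Replicate 1 had an entry of 69.7 at rank 995, with its summit 153 bp away, while the nearest entry of replicate 2 had 14.7 at rank 14638. A stronger entry of replicate 2, with 26.6 at rank 4419, lay farther downstream, at 10766152 to 10766571.

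skn-1, the Nrf factor gene, lies at IV 5651039 to 5660384 on the minus strand and has 4 starts. Its thresholded entry, at 5657068 to 5657487, had its summit 1673 bp upstream of the start of T19E7.2c.1 and in the first intron, of 4347 bp, of T19E7.2a.1, the transcript with the most 5′ start. The pooled signal value was 156.5 (rank 674), with 65.7 in replicate 1 (rank 1092) and 93.4 in replicate 2 (rank 434). Replicate 2 ranked it higher than replicate 1 did, as for the upstream entry of pdk-1 and unlike the other 5 thresholded summits. The summit lay 40 bp upstream of the start of T19E7.26 and 287 bp downstream of that of T19E7.27, both non-coding RNA genes.

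Around skn-1, entries were dense. Over the gene and its start windows the pooled list had 1.41 summits per kb, more than at 98.9% of nuclear protein-coding genes, against a median of 0.182. An entry 1877 bp upstream of the start of T19E7.2c.1, overlapping the thresholded one, had a pooled signal value of 70.96 at rank 2451. By nearest summit it had 44.1 in replicate 2 and 11.7 in replicate 1. The replicate 1 entry of 65.7, paired with the thresholded entry, overlapped it as well. At the most 5′ start, that of T19E7.2a.1, the strongest entry lay 1317 bp upstream with 47.5 at rank 4766. Replicate 1 gave that entry 33.8 at rank 3452, and replicate 2 gave it 14.1 at rank 15637. In replicate 2 the strongest entry of this window lay 479 bp upstream, with 34.0 at rank 2735. The starts of T19E7.2b.1 and T19E7.2d.1 had no entry above 30.8.

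hsf-1, the heat shock factor gene, lies at I 11953507 to 11963085 on the minus strand, with starts 1101 bp apart. All of its entries were unthresholded. The strongest, 1662 bp upstream of the more 5′ start, had a pooled signal value of 36.9 (rank 7777), with 20.4 in replicate 1 and 14.96 in replicate 2. The others had pooled values from 17.96 to 24.8. For 21.0% of protein-coding genes a start window held a better-ranked entry.

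**Figure D3:**
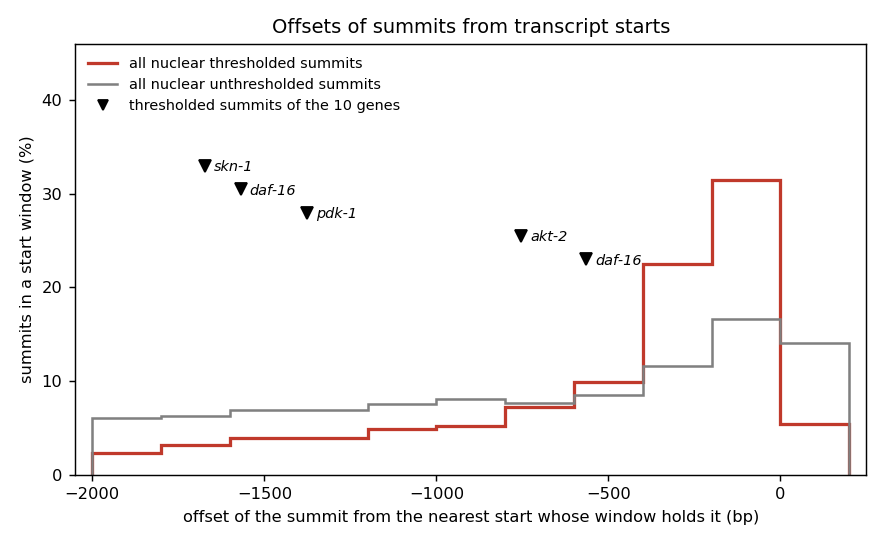
Share of summits in a start window (vertical axis, %) by offset from the nearest start whose window holds them (horizontal axis, bp, 200-bp bins), for all nuclear thresholded summits (red) and all nuclear unthresholded ones (grey). Triangles mark, at heights without meaning, the 5 thresholded summits of the 10 genes in such windows, which lie from 564 to 1673 bp upstream, while 64.6% of the red summits lie within 500 bp of a start.

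The thresholded summits of these genes lay farther from starts than most. Of the 7, 5 were in a start window, at a median distance of 1375 bp from the nearest start and none closer than 564 bp. Over the genome, 1054 of 1609 nuclear thresholded summits were in a start window of a protein-coding gene, at a median of 295 bp, and 681 of these, 64.6%, were within 500 bp. The unthresholded entries of the 10 genes in such windows lay at a median of 457.5 bp, with 57.1% within 500 bp, against 584 bp and 46.6% for all nuclear unthresholded entries. None of the 7 summits lay in the start window of another protein-coding gene. Introns of the 10 genes held 5 thresholded summits in 93.2 kb, or 5.37 per 100 kb. Over all nuclear protein-coding genes there were 1.17 per 100 kb of intron. Of these 5 intronic summits of the 10 genes, those at daf-16 and skn-1 also lay in a start window. Only those at daf-2 and pdk-1 did not. A non-coding RNA gene started within 300 bp of 3 of the 7, at daf-2, daf-16 and skn-1, as for 31.9% of all thresholded summits, and of 3 of the 59 unthresholded ones, against 8.60% of all such entries.

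**Figure D4:**
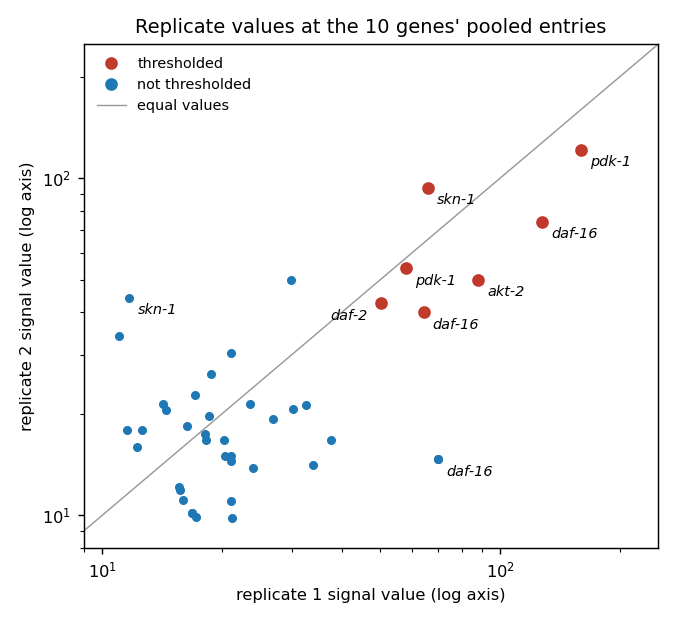
Signal values in replicate 1 (horizontal, log axis) and replicate 2 (vertical, log axis) for the 43 pooled entries of the 10 genes that overlap an entry in both lists. Red points are thresholded and blue ones are not, and the grey line marks equal values. The labelled blue points, of daf-16 and skn-1, lie far from that line on opposite sides. That of skn-1 is placed by the replicate 1 entry of nearest summit, and also overlaps a stronger one of 65.7.

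The replicates differed more among the weaker entries. The 10 genes had 66 pooled entries in start windows or introns, 52 of them at daf-16, skn-1 and daf-2. All 7 thresholded ones overlapped an entry in both replicates, as did 99.7% of all thresholded entries. Of the 7, 5 ranked within the top 1631 of each replicate, against 73.1% of all thresholded entries. The exceptions were daf-2 and the weaker entry of daf-16. Because the thresholded list was made from a pool of both replicates, this overlap is not independent evidence of it. Of the 59 others, 36 overlapped an entry in both replicates, 14 in replicate 1 alone, 8 in replicate 2 alone and 1 in neither. The share with both was 61.0%, against 55.3% of all unthresholded pooled entries. Neighbouring entries can overlap the same replicate entry, as the pair near 10765691 in daf-16 did.

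Other genes of the pathway were taken from lists of regulators, partners and targets that had been drawn up with earlier results of these data known, which included peaks at several heat shock genes. Of 62 listed genes 61 were matched by symbol, and 13 of them, 21.3%, had a thresholded summit in a start window, against the 7.29% of all protein-coding genes given above. Among 15 upstream regulators and cofactors there were 5. The strongest was cbp-1, the gene of the CBP/p300 acetyltransferase, with a pooled signal value of 665, against 389 in replicate 1 and 276 in replicate 2. The 14-3-3 gene ftt-2 had 412, smk-1, a cofactor of DAF-16, had 166.8, and pptr-1, a regulatory subunit gene of the phosphatase that acts on AKT-1, had 150.6. The TORC2 gene rict-1 had 108.9. The AMP-activated kinase gene aak-2 had its thresholded summit in an intron, with 134.9.

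Among 8 regulators and partners of SKN-1, wdr-23, whose product targets SKN-1 for degradation, had 95.9, with its summit 24 bp upstream of a start. Of the HSF-1 regulators, 2 of 5 had a thresholded summit, the chaperone genes hsp-90 with 481.5 and hsp-1 with 404. The listed HSF-1 targets gave 4 of 10, with hsp-60 at 565, hsp-3 at 276, hsp-110 at 244 and hsp-6 at 103.5. Of these, hsp-3 encodes a chaperone of the endoplasmic reticulum, and hsp-60 and hsp-6 encode mitochondrial chaperones, better known from the unfolded protein responses of those compartments. DAF-16 targets gave 1 of 15 (6.67%), the small heat shock protein gene sip-1 with 146.5, and SKN-1 targets gave 0 of 8. The share of all protein-coding genes was 7.29%, and differences between these short lists were not tested. Whether these summits also lie in the windows of neighbouring genes was not examined.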

How the data were processed

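Both replicates came from 1 group, so no comparison between groups or paired analysis was made. As the labels of the deposited files give it, the authors ranked peaks together with background in each replicate and in the pool, and thresholded on the IDR to make the short list, for builds ce11 and ce10. The 4 lists on ce11 were used here. The thresholded list on ce10 is longer, so which entries count as thresholded depends on the list, and genes were not placed on ce10. Which aligner and peak caller were run, and with which settings, is not given in the sources used here. A possible control named in the labels was not used here.

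The signal value and the −log10 q value of each entry are those deposited by the authors, in narrowPeak columns. Entries were ranked by signal within a list. A pooled entry was paired in each replicate with the overlapping entry of nearest summit. Starts and introns came from Ensembl release 115 on WBcel235, whose coordinates are those of ce11, and 0 entries ran past a chromosome end. Placing was done in Python 3.11.15 and tested on simulated data. Sites were searched on both strands within 100 bp of each summit.

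The genes, lists and windows were chosen with earlier results of these data known. All 10 genes are described whatever their values, and other pathway genes are named where they had a thresholded summit. Alternatives were other windows, interval overlap in place of the summit, RefSeq starts, the most 5′ start alone, the strongest thresholded entries and each replicate alone. No sequence is printed for daf-16 and hsf-1.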

Additional observations from a re-analysis of the deposited data

How the results depend on the processing

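The count of 4 genes with a thresholded summit in a start window fell to 2 (akt-2 and daf-16) with 1000 bp upstream, where 5.41% of protein-coding genes had one. With 500 bp upstream it was 0, against 4.12%. It was 2 (pdk-1 and akt-2) with the most 5′ start alone, against 6.73%, and 2 (daf-16 and skn-1) with the stronger part (815 entries) of the thresholded list, against 3.90%. It was 4, with the same genes, with RefSeq starts (7.18%), with interval overlap (7.58%), and in the top 1631 of replicate 1 alone (7.06%) or replicate 2 alone (6.87%). The count of 4 with a thresholded summit in an intron was 2 (daf-2 and pdk-1) for introns outside every start window. It was 3 with either replicate alone, daf-2 being the gene lost, because its entry ranked below 1631 in each. The counts of 7 genes with any pooled summit ranged from 5 to 8 in start windows and from 7 to 8 in introns. Shares of all protein-coding genes were not computed for these ranges or for the intron settings above.

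The strongest start-window entry of hsf-1, 36.9, was 24.8 with RefSeq starts. The median best rank in the start windows, with genes without an entry ranked last, was 10747 and rested on the weak entries of hsf-1 and daf-2. It was 18494.5 with 1000 bp upstream, 25368.5 with 500 bp, 14985.0 with RefSeq starts, 16978.0 with the most 5′ start alone, and 10477.5 to 13962.5 with 1 replicate left out. Over all protein-coding genes this median does not exist as a rank, because only 44.6% had an entry. No paired analysis was possible because there is 1 group. Depth limits could not be set, since the lists hold no counts.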

Other observations

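Some entries of these genes lay in exons outside every start window. Apart from the density of summits around skn-1, which includes exons, they belong to no count above. At akt-1 the strongest of all entries was such a one, at V 10251865 to 10252284 in a coding exon, with a pooled signal value of 44.8 (rank 5348), against 22.98 in replicate 1 and 20.1 in replicate 2. At daf-16 an entry of 43.8 lay in a non-coding exon at the 3′ end of the gene, at I 10776396 to 10776815. All 5 entries of daf-2 in exons alone had pooled values from 15.99 to 28.8.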
